A study of Mus musculus with 2 samples.

Results

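The loci of 10 naive pluripotency regulators were read for their CpG states: Esrrb, Klf2, Klf4, Klf5, Tfcp2l1, Tbx3, Prdm14, Zfp42, Nr5a2 and Nr0b1. The genes were chosen by name, for their place in the naive network and not by a measured level, out of 21938 protein-coding genes of GENCODE vM21. Earlier results of these data were known when they were chosen. Every CpG site inside the annotated span of a member, or within 10 kb upstream of its gene start, was taken, which gave 4836 of 13676795 CpG sites in replicate 1 and 1884 of 4918612 in replicate 2. None of the 10 loci overlapped another protein-coding gene. The DNA came from mouse embryonic stem cells (mESCs) of the established E14 line, taken at 2 passages, both grown on gelatin in serum with leukemia inhibitory factor (LIF), with no treatment, no genetic change stated and no second condition. The study calls cells in this culture primed. The passages are called replicate 1 and replicate 2, and since they are of 1 line the spread between them does not cover differences between lines. Only DNA was read, so the labelled cell type could not be checked here against the expression of its markers.

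SCoTCH-seq tethers both strands of a DNA fragment and reads C, mC and hmC on each of them, so that each call is a CpG state of the duplex. C denotes unmodified cytosine, M denotes 5-methylcytosine (mC) and H denotes 5-hydroxymethylcytosine (hmC). CC is an unmodified CpG site, MM is symmetric methylation, MC/CM is hemimethylation, HC/CH has hmC opposite C, HM/MH has hmC opposite mC, and HH has hmC on both strands. A level is the percentage of all calls in a region that carry a state. Replicate 1 had a median depth of 10 calls per CpG site and replicate 2 a median depth of 6, and sites with fewer than 5 calls had been removed from each. At the 10 loci between 33.3% (Zfp42) and 77.8% (Nr5a2) of the CpG sites in the genome were covered in replicate 1, and between 7.10% (Nr0b1) and 32.9% (Prdm14) in replicate 2. Replicate 1 is therefore the more precise of the pair. Intervals are given at 95% by the exact Clopper-Pearson method and cover counting error only, since CpG sites on 1 fragment are read together.

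Naive pluripotency is the state of the preimplantation epiblast, and mESCs hold it through a network of transcription factors that activate each other and answer to LIF and Wnt signals. When cells leave this state, these genes are silenced, and their regulatory DNA can gain methylation. Methylation is laid down by DNMT enzymes, while TET enzymes oxidise mC to hmC and so open a route back to C. Promoters rich in CpG are typically unmodified, bodies of transcribed genes are typically methylated, and in mESCs hmC is known at enhancers and in gene bodies.

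The sequences that carry the main contrasts are shown first. For Esrrb and Nr5a2, the 250 bases before the gene start (the most 5′ annotated transcript start) are set beside the 250 bases before an internal transcript start, because the CpG states at these places differed within a gene. Zfp42 is shown as a stretch of promoter with CC calls only. All are written 5′ to 3′ on the strand of the gene, from GRCm38.p6, with each CpG in capitals, and none of them overlaps an annotated exon.
Esrrb gene start, chr12:86360867-86361116, plus strand: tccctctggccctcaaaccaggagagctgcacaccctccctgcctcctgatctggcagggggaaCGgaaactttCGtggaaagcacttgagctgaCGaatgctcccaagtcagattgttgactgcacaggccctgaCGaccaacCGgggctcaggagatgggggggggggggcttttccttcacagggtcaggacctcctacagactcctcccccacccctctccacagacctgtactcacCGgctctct
Esrrb internal start, chr12:86469867-86470116, plus strand: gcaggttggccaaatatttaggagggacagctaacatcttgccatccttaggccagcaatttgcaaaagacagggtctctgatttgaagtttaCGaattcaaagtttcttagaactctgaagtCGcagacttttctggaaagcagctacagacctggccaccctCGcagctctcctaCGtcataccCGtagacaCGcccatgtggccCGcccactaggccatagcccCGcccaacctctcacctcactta
Nr5a2 gene start, chr1:136960449-136960698, minus strand: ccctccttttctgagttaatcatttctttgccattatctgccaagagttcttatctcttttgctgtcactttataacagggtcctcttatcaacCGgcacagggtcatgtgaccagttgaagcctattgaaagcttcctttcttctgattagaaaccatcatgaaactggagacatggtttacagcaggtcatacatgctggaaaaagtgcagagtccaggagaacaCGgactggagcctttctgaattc
Nr5a2 internal start, chr1:136953631-136953880, minus strand: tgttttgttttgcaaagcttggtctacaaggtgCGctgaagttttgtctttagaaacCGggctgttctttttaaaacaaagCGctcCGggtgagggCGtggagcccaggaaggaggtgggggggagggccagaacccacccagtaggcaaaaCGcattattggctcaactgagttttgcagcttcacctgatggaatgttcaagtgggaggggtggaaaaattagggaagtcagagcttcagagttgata
Zfp42 gene start, chr8:43306981-43307230, minus strand: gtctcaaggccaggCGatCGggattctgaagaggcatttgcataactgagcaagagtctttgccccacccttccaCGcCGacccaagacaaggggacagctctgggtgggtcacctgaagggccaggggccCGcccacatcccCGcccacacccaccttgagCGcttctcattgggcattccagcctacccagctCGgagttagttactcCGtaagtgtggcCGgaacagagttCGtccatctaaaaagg

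These 5 stretches hold 6, 8, 2, 6 and 11 CpG sites, in the order given. Before the Esrrb gene start, 11 of 27 calls at 4 covered sites were CC in replicate 1, and no site was covered in replicate 2. Before the internal Esrrb start, 64 of 72 calls at 8 covered sites were CC in replicate 1, again with no site covered in replicate 2. Before the Nr5a2 gene start, 6 of 14 calls were CC in replicate 1 and 2 of 6 in replicate 2. Before the internal Nr5a2 start, all 12 calls were CC in replicate 1 and all 11 in replicate 2, at 2 covered sites in each. Before Zfp42, all 48 calls at 6 covered sites were CC in replicate 1 and all 21 at 3 covered sites in replicate 2. The covered sites before the internal starts and before Zfp42 were thus read mostly or wholly as CC. Those before the gene starts of Esrrb and Nr5a2 were mixed. All of these readings rest on few calls.

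With the promoter set as the gene start ± 1 kb, 8 of the 10 members had a promoter CC level of at least 50% in both replicates. In the background, this held for 66.2% of 18569 protein-coding genes with at least 10 promoter calls in each replicate. The members fell far apart, with 8 above 80% and 2 below 30% in each replicate.

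Among the Krüppel-like factors, zinc-finger activators that share targets in mESCs, the promoters were mostly unmodified. Klf2, at chr8:72319033-72321656 on the plus strand, had a promoter CC level of 98.8% in replicate 1 and 94.6% in replicate 2. Klf4, at chr4:55527143-55532466 on the minus strand, had 99.6% and 100% in replicates 1 and 2. Klf5, at chr14:99298691-99315036 on the plus strand, had 86.7% and 83.3%. These levels rest on part of each promoter. Of the CpG sites, 25.0% and 9.87% were covered for Klf2, 18.4% and 5.59% for Klf4, and 29.7% and 9.68% for Klf5. At a second Klf5 transcript start, 463 bp into the gene, the levels within 1 kb were 100% and 96.7%, so in replicate 1 the modified calls lay at the upstream end of the promoter.

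Tfcp2l1 encodes a transcription factor downstream of LIF and STAT3, and Tbx3 a T-box factor. The Tfcp2l1 promoter, with its gene start at the left end of chr1:118627945-118685168, had a CC level of 92.4% in replicate 1 and 94.8% in replicate 2. The Tbx3 promoter, at the left end of chr5:119670669-119684724, had 98.8% and 100%. Prdm14 encodes a PR-domain protein that restrains FGF signalling and DNMT3 enzymes, and its promoter at the right end of chr1:13113457-13127163 had 91.9% and 82.7%. Zfp42 encodes REX1, a zinc-finger protein used as a marker of the naive state, and its promoter at the right end of chr8:43295063-43306980 had 97.2% and 98.8%. Nr0b1 encodes DAX1, a nuclear receptor without a usual DNA-binding domain, and its promoter at the left end of chrX:86191764-86195947 had 81.0% on 58 calls and 100% on 15 calls. Of these 5 genes the replicates differed most for Nr0b1, whose calls were fewest. Its promoter was read at 8 and 3 of its 81 CpG sites. The others were also read in part, with 7.04% of promoter CpG sites covered in replicate 2 for Tbx3, 15.0% for Prdm14, 22.7% for Tfcp2l1 and 26.0% for Zfp42.

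Esrrb and Nr5a2, which encode orphan nuclear receptors that bind related motifs, stood apart. The Esrrb promoter, at the left end of chr12:86361117-86521628, had a CC level of 28.0% (interval 21.8 to 34.9%, 193 calls) in replicate 1 and 15.0% (5.71 to 29.8%, 40 calls) in replicate 2. Its MM level was 45.6% and 67.5%. The Nr5a2 promoter, at the right end of chr1:136842571-136960448, had a CC level of 18.0% (11.4 to 26.4%, 111 calls) in replicate 1 and 7.32% (1.54 to 19.9%, 41 calls) in replicate 2. Its MM level was 50.5% and 53.7%. Both gene starts were thus mainly modified, on 22 and 6 CpG sites for Esrrb and on 8 and 6 for Nr5a2, and their intervals lay below those of the other 8 promoters in each replicate.

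**Figure D1:**
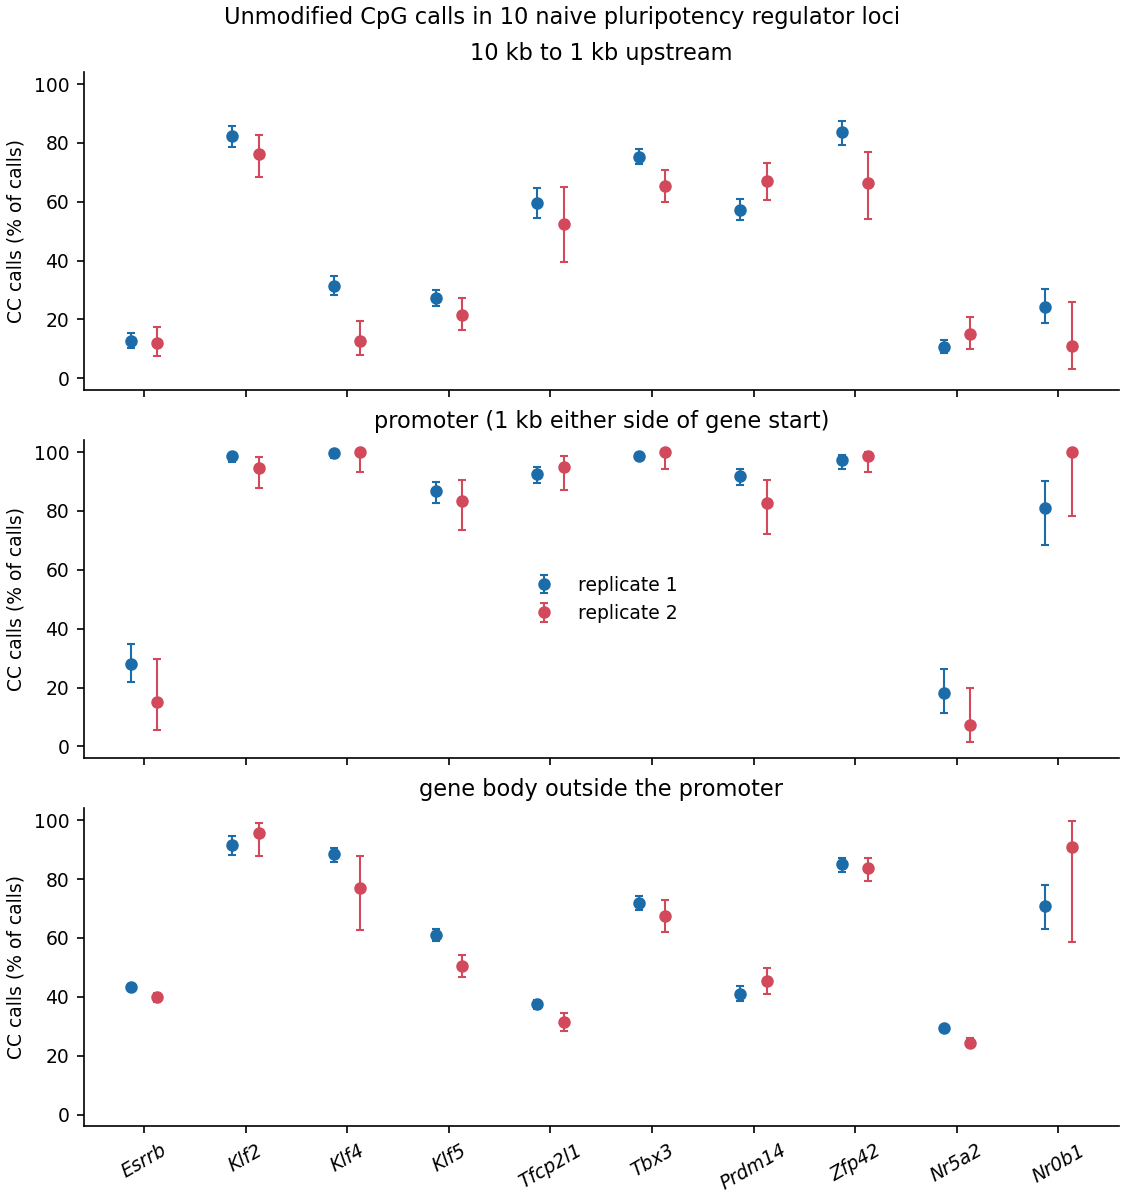
CC level (percent of calls, vertical axis) of each member (horizontal axis) in the upstream part, the promoter and the gene body. Points are replicates and bars are exact 95% intervals for counting error; 8 promoters lie above 80% in both replicates, and Esrrb and Nr5a2 lie below 30%.

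Both genes have further annotated transcript starts, and the CC level was high around all 4 of those in Esrrb and 3 of the 5 in Nr5a2. At Esrrb, 3 protein-coding transcripts begin 60.5 to 60.8 kb into the gene. The start at position 86421644 had a CC level within 1 kb of 86.8% in replicate 1 and 82.4% in replicate 2, and that at 86421883 had 93.9% and 88.7%. Another protein-coding transcript begins at 86470117, 109 kb into the gene, with 88.7% and 93.8%. A noncoding transcript begins at 86504409, 143 kb into the gene, with 86.0% and 88.5%. At each of these 4 starts the intervals lay above those of the gene start in both replicates. Those at 86421644 and 86421883 share most of the bases around them, so they are not separate readings. The start at 86504409 had 26 calls at 4 CpG sites in replicate 2.

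At Nr5a2, transcripts begin at 6 positions. The gene start and a start 68 bp inside it shared their CpG sites and thus their levels. The start at 136953630, 6.82 kb into the gene, had a CC level of 99.7% in replicate 1 and 100% in replicate 2. The start at 136949562, 10.9 kb into the gene, had 97.6% and 93.2%, and that at 136949173 had 96.6% and 100%. These last 2 share most of the bases around them, and they had 44 and 39 calls in replicate 2. The start of a retained-intron transcript at 136940583, 19.9 kb into the gene, had 42.4% and 43.4%, with HC/CH levels of 11.9% and 9.43%. HC/CH was about as high at the gene start, at 9.91% and 9.76%, where CC was lower, at 18.0% and 7.32%. With the promoter set as 1 kb around every annotated transcript start, all 10 members had a promoter CC level of at least 50% in both replicates, against 48.3% of 19488 genes by that definition.

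**Figure D2:**
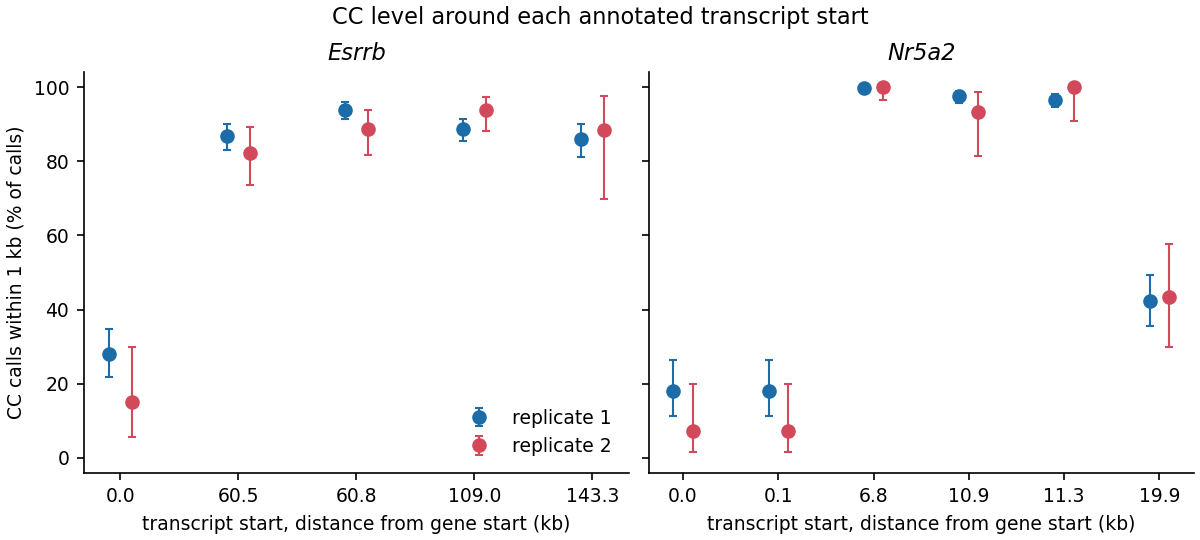
CC level within 1 kb (percent of calls, vertical axis) of each annotated transcript start of Esrrb and Nr5a2, in order of distance from the gene start, given in kb under each point. Bars are exact 95% intervals; the starts inside Esrrb lie above 80% in both replicates, while the gene starts lie below 30%.

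Promoters were then compared with bodies (the annotated span outside the promoter) by Fisher's exact test in each replicate, two-sided, with Benjamini-Hochberg adjustment over all genes tested. A gene was called when the adjusted p was under 0.05 in both replicates in the same direction. Of the 6 members with at least 50 calls in both regions of both replicates, 5 had more CC in the promoter, against 87.8% of 10307 genes in the background, a share near that of the members. The other 4 members could not be tested: the promoters of Esrrb and Nr5a2, the body of Klf4 and both regions of Nr0b1 had too few calls in replicate 2.

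The gap was widest for Tfcp2l1, where the promoter exceeded the body by 55.0 and 63.5 percentage points in replicates 1 and 2 (59.3 ± 6.03, SD, n = 2), with adjusted p-values from Fisher's exact test of 3.34e-107 and 2.65e-29. For Prdm14 the difference was 44.1 ± 9.55 percentage points (SD, n = 2), for Tbx3 29.7 ± 3.84, for Klf5 29.2 ± 4.96 and for Zfp42 13.7 ± 2.02. All of these differences were larger than the spread between the replicates. Klf2 differed by 7.12 percentage points in replicate 1 but by -1.09 in replicate 2, and it was not called (adjusted p of 1 in replicate 2, Fisher's exact test). Its body is short and was itself almost free of modification. Without a test, the difference was negative in both replicates for Esrrb, at -15.5 and -24.8 percentage points, and for Nr5a2, at -11.3 and -17.0. The bodies of both genes here hold the internal starts with a high CC level. The sign depended on the promoter chosen. With 1 kb around every transcript start, both genes were called with more CC in the promoter, and Nr5a2 was also called with 2 kb around the gene start.

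For HC/CH, no member was called lower in the promoter, against 12.2% of 10307 genes in the background. In replicate 1 alone, 5 of the 6 members tested had an adjusted p under 0.05 by Fisher's exact test, with 0.000829 for Prdm14 and 8.92e-06 for Tbx3, against 62.7% of genes in that replicate, and in replicate 2 the adjusted p was 0.166 or more. At an unadjusted p under 0.05, 5 members passed in replicate 1, against 64.7% of genes, and 0 in replicate 2, against 27.5% of genes, by Fisher's exact test. The lowest p in replicate 2 by this exact test was 0.0531, for Tbx3. HC/CH was lower in the promoter than in the body in both replicates for Klf5, Tfcp2l1, Tbx3, Prdm14 and Zfp42, by 2.20 to 5.03 percentage points on average. These 5 promoters had 63 to 84 calls in replicate 2. For Klf2, the other member tested, the difference was -0.331 percentage points in replicate 1 and 3.26 in replicate 2. Among the members that were not tested, the difference was -3.82 and -8.33 percentage points for Klf4 and -1.21 and -9.09 for Nr0b1. It went the other way in both replicates for Nr5a2, at 3.81 and 4.53, and was 4.99 and -1.04 for Esrrb.

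Bodies of the members were less methylated than the median gene. Of the 7 members with at least 100 body calls in each replicate, 7 had a body CC level above the median gene in both, against 45.2% of 15516 genes. The median gene had 21.3% in replicate 1 and 17.2% in replicate 2. The body CC level of Zfp42 was 85.0% in replicate 1 and 83.7% in replicate 2, that of Tbx3 was 71.9% and 67.6%, and that of Klf5 was 61.0% and 50.6%. For Prdm14 it was 41.1% and 45.4%, for Esrrb 43.5% and 39.8%, for Tfcp2l1 37.4% and 31.3%, and for Nr5a2 29.3% and 24.4%. The order from Zfp42 down to Klf5 was the same in both replicates, and so was the order from Esrrb through Tfcp2l1 to Nr5a2. Prdm14 and Esrrb changed places between the replicates. Klf2, Klf4 and Nr0b1, with fewer calls, had body CC levels of 91.7%, 88.4% and 70.9% in replicate 1 and 95.7%, 77.1% and 90.9% in replicate 2.

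Upstream, from 10 kb to 1 kb before the gene start, the members differed widely. The CC level was 82.3% and 76.2% for Klf2, 83.6% and 66.2% for Zfp42, 75.3% and 65.4% for Tbx3, 57.4% and 67.1% for Prdm14, and 59.6% and 52.3% for Tfcp2l1. It was lower for Nr5a2 (10.6% and 14.9%) and Esrrb (12.7% and 11.9%), which were mainly MM there. Klf4 had 31.5% and 12.8%, Klf5 27.3% and 21.5%, and Nr0b1 24.3% and 11.1%. Over genes with at least 100 upstream calls in each replicate, the median was 25.5% and 21.0%. In replicate 2 Zfp42 (74 calls), Tfcp2l1 (65 calls) and Nr0b1 (36 calls) did not reach that minimum. The upstream part of Zfp42 was the most thinly covered in both replicates, read at 28 and 11 of its 216 CpG sites.

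Within the Esrrb body the exons were less modified than the introns, with CC levels of 55.5% and 54.4% against 42.6% and 38.8%. In Tfcp2l1 the order was reversed, with 20.6% and 16.0% in exons against 42.5% and 36.1% in introns. In Tbx3 exons had 76.5% and 76.3% and introns 60.2% and 51.4%. Prdm14 exons had 46.7% and 64.0% and introns 37.8% and 27.2%. No single order of exons and introns held across the members.

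To see where the unmodified DNA lay, each locus was tiled with 1 kb windows, and those away from the promoter with at least 5 CpG sites and a CC level of at least 50% in replicate 1 were called low-methylated. There were 128 such windows among 383 at the 10 loci, or 33.4%, against 8.62% of 730891 windows over all protein-coding loci. Of the 56 with at least 5 CpG sites in replicate 2, 49 had a CC level of at least 50% there too (87.5%, against 81.2% over all loci). Esrrb alone held 47 of the 128, Tbx3 and Nr5a2 held 16 each, Tfcp2l1 held 14 and Zfp42 held 11. Klf5 held 8, Klf2 and Klf4 held 5 each, Prdm14 held 4 and Nr0b1 held 2. Of the windows with at least 5 CpG sites, Tbx3 had 16 of 18 low and Zfp42 11 of 11, while Nr5a2 had 16 of 113. At Zfp42 these 11 were of 18 windows outside the promoter, the others being too thinly covered to read. Klf5 was an exception in replicate 2, where 1 of its 4 readable low-methylated windows had a CC level of at least 50%.

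The longest run of neighbouring low-methylated windows in Esrrb spanned 13 windows at chr12:86466117-86479116, 105 to 118 kb into the gene. It covers introns and exons and includes the internal start at 86470117. Its CC level was 82.7% in replicate 1 (1894 calls) and 84.9% in replicate 2 (451 calls). In Nr5a2 the longest run spanned 14 windows at chr1:136944571-136958570, 1.88 to 15.9 kb into the gene, with 85.8% and 77.4%, and it includes 3 internal starts. In Tfcp2l1 it spanned 8 windows at chr1:118644945-118652944, 17 to 25 kb into the gene, with 78.1% and 71.1%, and no annotated start of the gene lies there. In Zfp42 it spanned 6 windows at chr8:43295063-43301062, at the 3′ end of the gene, with 79.8% and 79.4%. The runs were chosen by CC in replicate 1, so only replicate 2 is a separate reading. Summed over the run, replicate 2 gave a CC level of 71.1% or more in each of these 4 genes.

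The runs in the other members were shorter. In Klf4 4 windows at chr4:55527143-55531142 had 85.7% in replicate 1 and 77.1% in replicate 2. In Tbx3 4 windows at chr5:119672669-119676668 had 63.0% and 57.4%, with HC/CH levels of 6.34% and 9.93%. In Klf5 2 windows at chr14:99300691-99302690 had 75.7% and 64.9%. In Klf2 2 windows upstream at chr8:72316033-72318032 had 94.4% and 85.3%. In Prdm14 2 windows upstream at chr1:13132457-13134456 had 61.2% and 50.0%, and in Nr0b1 1 window at chrX:86194764-86195763 had 68.8% and 90.9%, the latter on 11 calls.

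**Figure D3:**
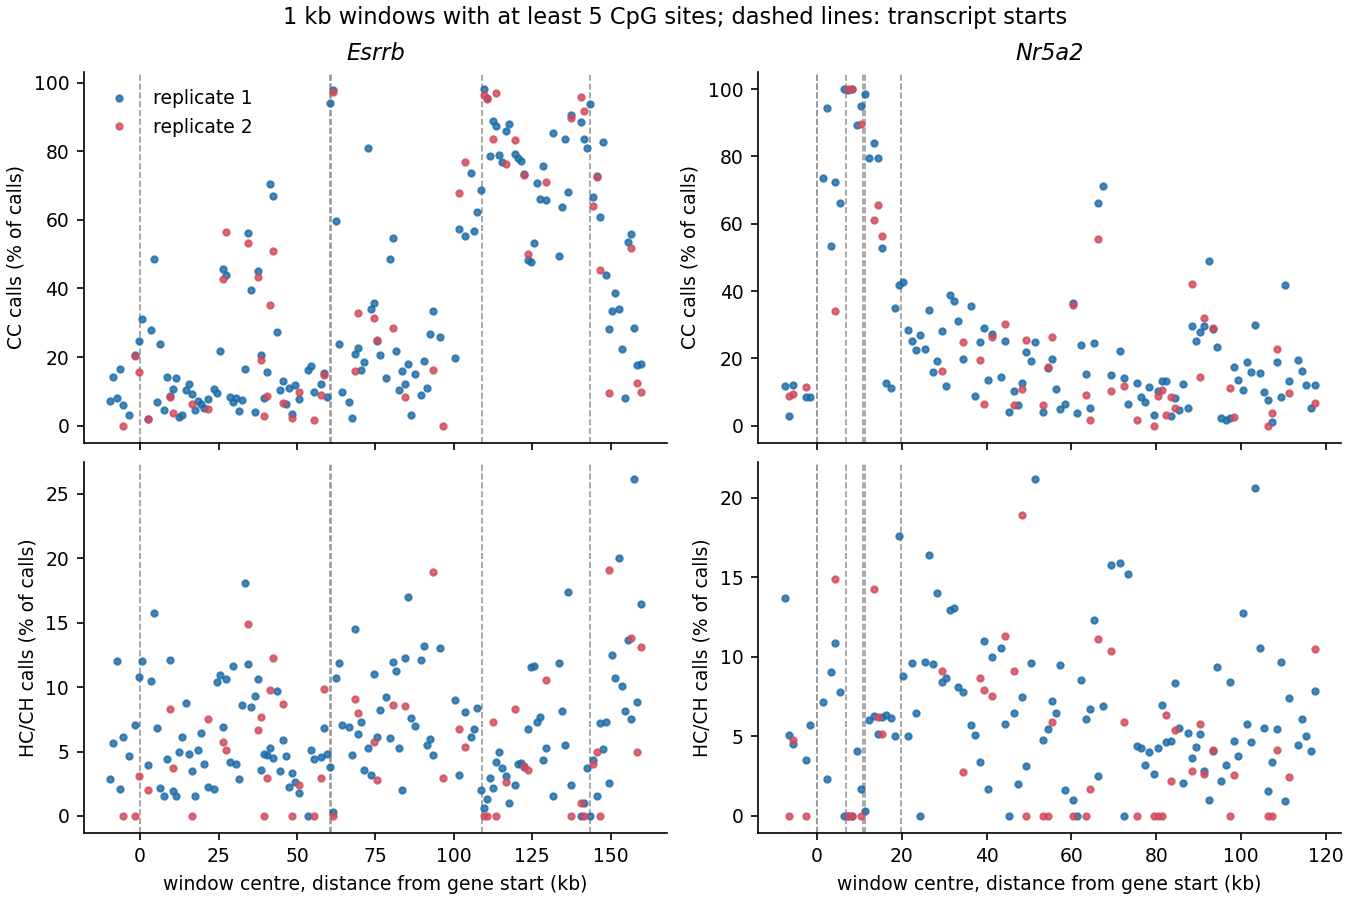
CC (top) and HC/CH (bottom) in percent of calls for 1 kb windows with at least 5 CpG sites, by distance of the window centre from the gene start in kb, for Esrrb and Nr5a2. Dashed lines are annotated transcript starts; CC is high in a run from 105 to 118 kb in Esrrb and from 1.88 to 15.9 kb in Nr5a2.

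Of the hmC states, HC/CH was the main form in the bodies. At least 500 body calls in each replicate were required for the comparison with other genes, which left Esrrb, Klf5, Tfcp2l1 and Nr5a2, and all 4 had a body HC/CH level above the median gene in both replicates, against 41.7% of 7790 genes. With a minimum of 100 calls, 5 of 7 members passed, against 39.5% of 15516 genes.

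The body HC/CH level of Klf5 was 7.43% (6.42 to 8.55%) in replicate 1 and 7.59% (5.76 to 9.79%) in replicate 2, above 92.7% and 92.8% of genes. Prdm14 had 6.59% and 7.22%, and Esrrb had 6.41% and 6.04%. Tfcp2l1 had 5.91% and 6.51%, and Nr5a2 had 6.10% and 5.22%. Tbx3, with 4.65% and 5.97%, lay below the median gene in replicate 1 and above it in replicate 2. Zfp42 had 2.46% and 1.94%, above only 6.10% and 10.0% of genes. The intervals of Esrrb, Tfcp2l1, Prdm14 and Nr5a2 overlapped in each replicate, so these 4 could not be ranked, and that of Klf5 overlapped all 4 of them in each replicate, while Zfp42 lay apart from all of them and from Klf5 in both. The median gene had 4.98% in replicate 1 and 4.26% in replicate 2.

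The bodies of Klf2, Klf4 and Nr0b1 held too few calls for that comparison. Klf2 had 1 HC/CH call of 302 in replicate 1 and 0 of 69 in replicate 2, for which the exact interval allows a level of up to 5.21%. Klf4 had 3.82% in replicate 1 and 8.33% in replicate 2, and Nr0b1 had 8.11% on 148 calls and 9.09% on 11 calls.

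Set against HM/MH, HC/CH was the higher in the bodies of all 4 members with at least 500 calls, in both replicates, against 64.2% of 7790 genes. With at least 100 calls it was higher in 7 of 7 members, against 61.2% of 15516 genes. HM/MH levels were 3.78% and 3.22% for Esrrb, 2.59% and 2.25% for Klf5, 4.28% and 3.08% for Tfcp2l1, 4.73% and 3.59% for Nr5a2, 3.82% and 4.12% for Prdm14, 2.02% and 3.14% for Tbx3, and 1.29% and 1.11% for Zfp42. As called, HC/CH made up 59.6% of the hmC-bearing calls in the Esrrb body in replicate 1 and 62.5% in replicate 2, and 71.0% and 74.0% in the Klf5 body. These shares were not corrected for the calling errors described below, which bear on HM/MH. HH was rare, with 87 and 16 calls of 15587 and 3973 in the Esrrb body and fewer calls in the other bodies. As a level it was higher in the Prdm14 body in replicate 1 (0.637%) and in the Klf5 body in replicate 2 (0.422%). Solving for call rates, given next, took the Esrrb level from 0.558% to 0.217% in replicate 1 and from 0.403% to 0.388% in replicate 2.

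Calling errors bear on HM/MH. On the synthetic duplexes, where the most frequent call at a site was taken as its state, 4.51% of calls at MM sites in replicate 1 were read as HM/MH, and 0.467% in replicate 2. Solving for these call rates left the body HC/CH level of Esrrb at 6.10% and 6.11% and that of Klf5 at 7.20% and 7.78%, while HM/MH fell to 2.01% and 2.90% in Esrrb and to 1.56% and 1.86% in Klf5. After correction HC/CH remained the higher of the pair in all 4 members, but this then held for 95.1% of 7790 genes, so that the order by itself sets the members little apart.

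**Figure D4:**
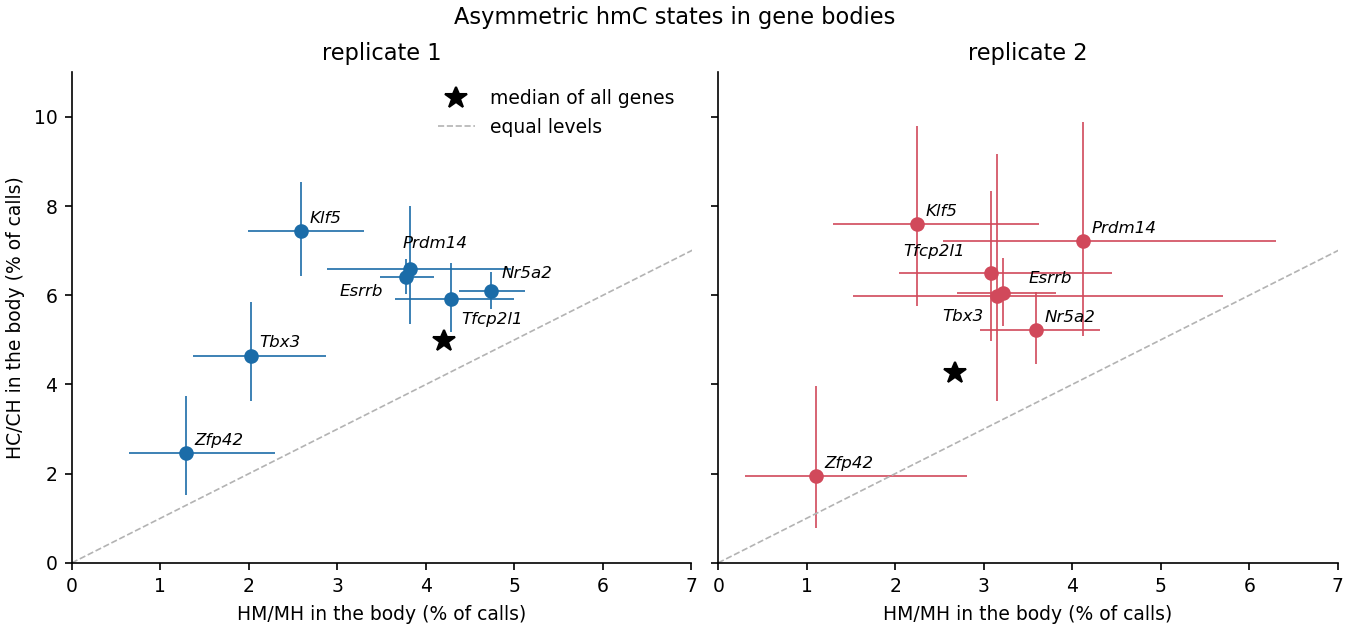
Body HC/CH against body HM/MH (percent of calls) of the 7 members with at least 100 body calls in each replicate, with exact 95% intervals. The star is the median of 15516 genes and the dashed line marks equal levels; all 7 points lie above the line, with Zfp42 the lowest in HC/CH in both replicates.

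Asymmetric hmC can lie on the sense or the antisense strand of a gene. An exact binomial test, two-sided, on the HC/CH calls of the body, adjusted over 8537 genes with at least 20 such calls in each replicate, called none of the 5 members tested, and the share in the background was 0% of genes in both replicates. At an unadjusted p under 0.05 in both replicates in the same direction, 2 members passed, against 24 of the 8537 genes (0.281%). In Klf5 58.0% of HC/CH calls had hmC on the sense strand in replicate 1 (105 of 181) and 70.4% in replicate 2 (38 of 54), with adjusted p-values from the exact binomial test of 0.526 and 0.415. In Tfcp2l1 the share was 57.5% and 64.9%, with adjusted p-values from the exact binomial test of 0.511 and 0.646. In Esrrb, with 999 and 240 HC/CH calls, it was 53.1% and 46.7%, and in Nr5a2 it was 51.8% and 46.9%. In Prdm14 the share was 54.8% and 48.6%. The direction in Esrrb, Nr5a2 and Prdm14 differed between the replicates.

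HC/CH was uneven along the loci. The 1 kb window with the highest HC/CH level in replicate 1, among those with at least 10 CpG sites, was read in replicate 2 where coverage allowed. Such windows were picked for a high value, so the level in replicate 1 is a description. For Esrrb and Nr5a2, with the highest of these levels, and for Prdm14 and Tbx3, with the highest among windows read at 5 or more CpG sites in replicate 2, a stretch of 300 bases outside exons is shown, the one with the most covered CpG sites, in the same notation as above.
Esrrb, chr12:86518117-86518416, plus strand: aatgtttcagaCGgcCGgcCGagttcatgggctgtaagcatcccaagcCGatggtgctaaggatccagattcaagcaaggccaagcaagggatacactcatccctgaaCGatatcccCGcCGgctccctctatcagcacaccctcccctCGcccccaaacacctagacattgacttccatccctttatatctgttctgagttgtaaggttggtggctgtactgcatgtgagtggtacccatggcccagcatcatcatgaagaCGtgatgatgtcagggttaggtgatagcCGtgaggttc
Nr5a2, chr1:136856571-136856870, minus strand: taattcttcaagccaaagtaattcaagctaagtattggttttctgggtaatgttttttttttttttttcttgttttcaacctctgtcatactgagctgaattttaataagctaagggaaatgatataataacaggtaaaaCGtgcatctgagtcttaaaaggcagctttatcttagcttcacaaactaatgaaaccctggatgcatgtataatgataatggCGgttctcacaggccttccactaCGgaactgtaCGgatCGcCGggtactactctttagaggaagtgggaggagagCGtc
Prdm14, chr1:13118457-13118756, minus strand: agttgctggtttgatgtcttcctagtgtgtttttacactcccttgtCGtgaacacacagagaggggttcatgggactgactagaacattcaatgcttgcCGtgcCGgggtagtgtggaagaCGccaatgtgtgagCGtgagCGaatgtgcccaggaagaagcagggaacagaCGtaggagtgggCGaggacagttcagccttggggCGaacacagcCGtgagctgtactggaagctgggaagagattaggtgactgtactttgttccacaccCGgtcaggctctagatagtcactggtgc
Tbx3, chr5:119674778-119675077, plus strand: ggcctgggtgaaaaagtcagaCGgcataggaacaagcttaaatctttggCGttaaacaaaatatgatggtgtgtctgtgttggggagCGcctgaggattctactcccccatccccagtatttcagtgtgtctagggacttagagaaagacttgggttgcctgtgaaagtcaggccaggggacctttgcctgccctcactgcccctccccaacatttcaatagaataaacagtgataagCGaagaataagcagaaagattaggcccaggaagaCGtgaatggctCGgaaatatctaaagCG

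In Prdm14 the window at chr1:13118457-13119456, 8.21 kb into the gene, had an HC/CH level of 11.5% (17 of 148 calls) in replicate 1 and 13.2% (10 of 76 calls) in replicate 2. It was otherwise mainly MM, at 60.8% and 57.9%. In Tbx3 the window at chr5:119674669-119675668, 4.50 kb into the gene, had 10.7% (24 of 225 calls) and 8.33% (3 of 36 calls), with CC near 50% in both. In Klf4 the window at chr4:55528143-55529142, 3.82 kb into the gene, had 8.39% and 10.5%, and in Zfp42 the window at chr8:43295063-43296062 had 5.17% and 5.41%. In these 4 loci the level in replicate 2 lay within the interval of replicate 1, on 2 to 10 HC/CH calls. In the bases shown for Prdm14, 5 of 51 calls were HC/CH in replicate 1 and 3 of 26 in replicate 2, and in those for Tbx3 6 of 73 and 3 of 25.

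The highest level of all was in Esrrb, where the window at chr12:86518117-86519116 had 26.1% (35 of 134 calls, interval 18.9 to 34.4%). It lies 158 kb into the gene and touches an exon. In the 300 bases shown, all 7 covered CpG sites carried HC/CH, in 17 of 72 calls. Replicate 2 had only 3 sites in the window, with 1 HC/CH call of 16. In Nr5a2 the intronic window at chr1:136856571-136857570, 103 kb into the gene, had 20.6% (20 of 97 calls), with 0 of 10 calls in replicate 2, and 13 of 60 calls in the bases shown. In Klf5 the intronic window at chr14:99307691-99308690 had 14.4% (18 of 125 calls), with 1 of 20 calls in replicate 2. In Tfcp2l1 the window at chr1:118645945-118646944, inside its low-methylated run, had 8.93% (10 of 112 calls), with 2 of 29 calls in replicate 2. The level in replicate 2 lay below the interval of replicate 1 in Esrrb, Nr5a2 and Klf5 and within it in Tfcp2l1, in each case on at most 4 CpG sites in replicate 2.

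Klf2 had 1 HC/CH call of 87 in its highest window and 0 of 28 in replicate 2, and no window of Nr0b1 reached 10 CpG sites.

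The windows were then classed by CC in replicate 1 as low-methylated, next to a low-methylated window, or other, here with promoter windows included. The classes rest on the CC level of replicate 1, so replicate 2 is the independent reading. At the 10 loci HC/CH in replicate 2 was 4.87% in 151 low-methylated windows, 8.80% in the 34 windows next to them and 5.66% in 223 other windows. In replicate 1 the levels were 3.94%, 9.33% and 6.90%. Summed over the 10 loci, the highest level was thus in the windows beside the low-methylated ones, in both replicates. Over all protein-coding loci the same 3 classes had 3.80%, 6.29% and 4.08% in replicate 2, in the same order and at lower levels.

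As a share of modified calls, HC/CH summed over the 10 loci fell from the low-methylated windows outwards. In replicate 2 it was 20.2% of modified calls in low-methylated windows of the 10 loci, 12.6% in the windows next to them and 6.59% in other windows, against 16.2%, 8.13% and 4.63% over all loci. In replicate 1 the shares at the 10 loci were 20.5%, 13.4% and 8.34%. By gene this order was broken in Tfcp2l1 in replicate 2, at 17.4%, 26.3% and 6.85%. The neighbouring and other windows were also in the opposite order in Prdm14 (10.0% and 10.9%) in replicate 2, in Klf5 by less than 1 percentage point in replicate 2, in Klf4 (5.51% and 5.64%) in replicate 1, and in Tbx3 (0% and 9.52%) in replicate 2. The pooled order of the levels did not hold in every gene either. Within Esrrb, which gave 17 of the 34 neighbouring windows, HC/CH was 10.1% and 8.50% of calls there, against 7.37% and 6.06% in its other windows, and the neighbouring windows were also the higher in both replicates in Tfcp2l1 (8.98% and 19.6% against 6.69% and 5.79%) and Nr5a2 (8.75% and 11.1% against 6.50% and 4.80%), on 2 windows each. In Klf4 the only neighbouring window had 4.70% against 4.68% in replicate 1, and 1 HC/CH call of 10 in replicate 2. In Klf5, with 9 neighbouring windows, the order was reversed, at 9.22% and 8.07% against 10.6% and 11.3%. In Prdm14 it was reversed too, at 6.92% and 6.38% against 7.35% and 9.06%, and in Tbx3, with 1 neighbouring window, the replicates differed in direction. As a share of modified calls, HM/MH summed over the 10 loci was also highest in the low-methylated windows. In the same order of classes it was 7.94%, 6.99% and 6.58% in replicate 1 and 8.39%, 4.66% and 4.80% in replicate 2. The difference in HC/CH between the 10 loci and all loci was not tested.

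**Figure D5:**
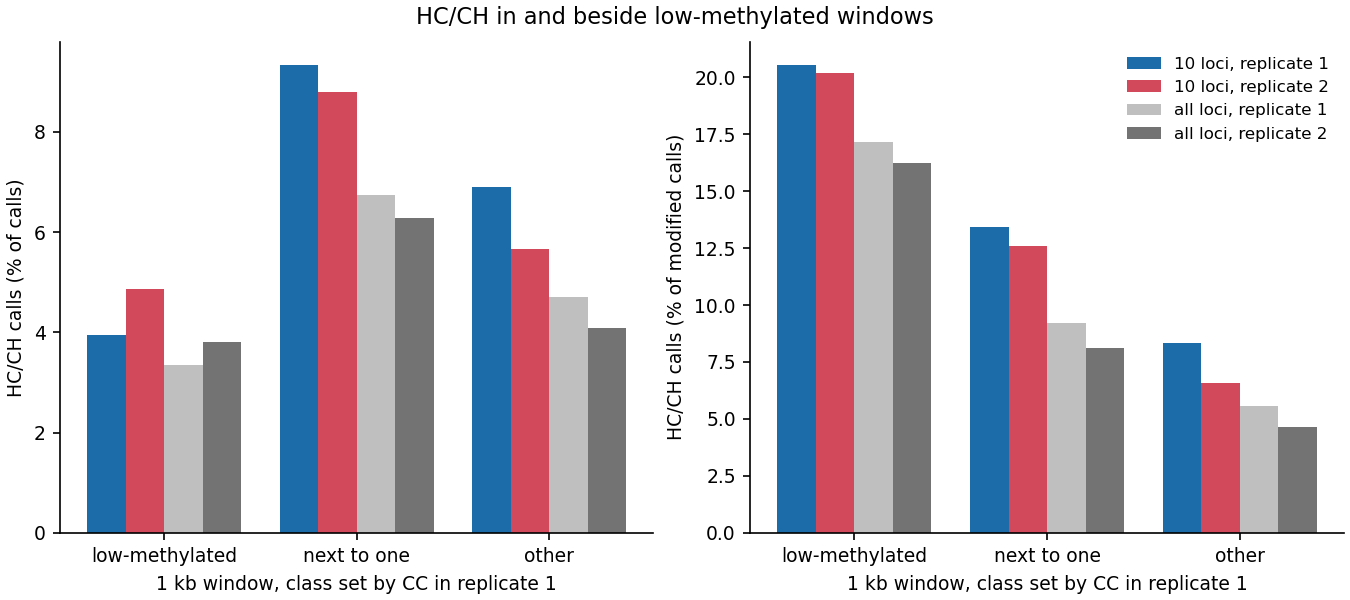
HC/CH as a percentage of all calls (left) and of modified calls (right) in 1 kb windows classed by CC in replicate 1, with bars for the 10 loci and for all protein-coding loci in each replicate. Summed over loci, the level is highest next to low-methylated windows (9.33% and 8.80% at the 10 loci), and the summed share of modified calls falls outwards.

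Other genes of the pluripotency network, Pou5f1, Sox2, Nanog, Sall4, Stat3, Gbx2, Dppa3, Fgf4, Tcl1 and Dppa5a, were read in the same way. Of these 10, 8 had a promoter CC level of at least 50% in both replicates, the same number as among the 10 members. Dppa3, a maternal factor expressed in naive cells, had 48.3% and 61.3%, and Fgf4 had 46.5% and 48.3%. The median promoter CC level was 95.8% and 95.5% for these genes and 92.2% and 94.7% for the members. With at least 100 body calls, 6 of 7 network genes lay above the median gene for body CC and 5 of 7 for body HC/CH. Their median body HC/CH level was 5.74% and 6.72%, beside 6.10% and 6.04% for the members and 4.98% and 4.26% for all genes.

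Genes known to rise when cells leave the naive state, Fgf5, Otx2, Pou3f1, Dnmt3a, Dnmt3b, Zic2, Sall2, Lef1, Cdh2 and Foxa2, made up the other list. Of the 8 with at least 10 promoter calls in each replicate, 7 had a promoter CC level of at least 50% in both, and Dnmt3a had 46.3% and 18.4%. Their median was 81.6% in replicate 1 and 74.4% in replicate 2. For body CC, 6 of 8 lay above the median gene in both replicates. For body HC/CH, 2 of 8 lay above the median gene in both replicates, Dnmt3a (6.15% and 5.85%) and Lef1 (6.08% and 5.48%). The median body HC/CH level was 4.52% and 3.46%. Otx2, a factor of the formative state, had 2.91% and 0.663%. The lists were not tested against each other.

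Promoter sequences of RefSeq on GRCm38, from 250 bases before to 50 after a start, were found for 7 of the 10 members. In these promoters the letters GGGCGGGG, a GC box, were found on either strand before Klf2, Klf4 and Zfp42, and in 17.6% of all 32851 promoters. Starts without such a sequence were not searched. The bases shown above before the internal Esrrb start also hold these letters, on the other strand. GGGTGTGG, which Krüppel-like factors bind, and ATTTGCAT, the octamer, were each found before Zfp42 alone among the members searched, and in 3.56% and 1.74% of all promoters. TCAAGGTCA, an ESRRB motif, and TTCCNGGAA, a STAT motif, were found in 0 of the 9 promoters of members and in 0.423% and 1.15% of all promoters.

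By their levels of 6 states in promoter and body in both replicates, 24 values in all, the gene most like each member was sought among 4938 genes with at least 50 promoter and 500 body calls. For Tfcp2l1 it was Limk2, with a root mean square difference of 1.03 percentage points, and for Klf5 it was Pcdhga10, with 1.85. These were the members that met the same minimum of calls. For Tbx3 it was Klf9 (1.14 percentage points), for Prdm14 Ywhae (1.95), for Zfp42 and Klf2 Zic4 (2.47 and 5.25), for Esrrb Gm20662 (2.52), for Klf4 Rasgrp2 (3.22), for Nr5a2 Ndel1 (3.49) and for Nr0b1 Rpl3 (4.58). The other 8 members did not meet that minimum and could not be found as the nearest gene of another.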

How the data were processed

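Both SCoTCH-seq libraries, 1 for each E14 mESC passage, carried synthetic duplexes, methylated lambda DNA and unmethylated pUC19. Per the labels and the methods, the authors trimmed adapters with cutadapt 4.6, aligned to GRCm38 (mm10), removed duplicates with Picard 3.1.1 and resolved both strands of a fragment into 1 call. For CpG sites with at least 5 calls, outside blacklisted regions, the authors deposited a count for every state seen and its percent of the depth, which was checked to be the count over the depth at every site. The deposited counts were not corrected by the spike-ins.

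Counts were summed over regions of GENCODE vM21 protein-coding genes in each replicate apart, with SciPy 1.17.1, NumPy 2.4.6, pandas 2.3.3 and Python 3.11.15. Plots were drawn with Matplotlib 3.10.9. All sites in the 10 loci lay on the C of a CpG in GRCm38.p6. The first letter of a state is the plus strand. Replicate 1 had 143497239 calls and replicate 2 had 31306245, and intervals cover counting error only. The 2 replicates share 1 condition, so samples were not tested against each other, and Fisher's exact and exact binomial tests compare calls within a library. They treat calls as independent, which calls of 1 fragment are not. Call rates of each replicate were computed from the duplexes with at least 1000 calls per site, taking the most frequent call as the true state. On simulated independent counts with large planted changes, the CC test recovered most of them. Small HC/CH differences like those in these data, and calls that depend on each other, were not simulated.

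All 10 members are named, with the longest low-methylated run of each and, except for Nr0b1, the window of highest HC/CH. The members and the lists of other genes were chosen with earlier results of these data known. Alternatives were the mean of per-site percentages, at least 10 calls per site, only sites in both replicates, promoters reaching 500 bp or 2 kb from the start, every transcript start, spike-in correction, other windows, and each replicate alone. The minimum of 100 body calls was chosen after seeing the data.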

Additional observations from a re-analysis of the deposited data

How the results depend on the processing

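No paired analysis was possible because both replicates belong to 1 condition. Of 6 members with enough calls, 5 had more CC in the promoter than in the body. With only sites covered in both replicates it was 3 of 4, against 87.7% of genes. With a promoter of 500 bp either side it was 2 of 3, against 93.4%. The number was 0 with at least 10 calls per site, where no member had enough calls. With a promoter of 2 kb either side it was 6 of 7, against 78.8% of genes. With every transcript start it was 7 of 8, against 81.8%. With either replicate left out it was 5 to 6 of 6, against 88.5% to 90.6% of genes. For less HC/CH in the promoter the number went from 0 to 2 of 7 with a promoter of 2 kb either side, against 8.18% of genes. With every transcript start as a promoter it was 1 of 8, against 6.1%. Without replicate 2 it was 5 of 6, against 62.7% of genes, and without replicate 1 it was 0 of 6, against 12.5%. With at least 10 calls per site, the members with promoter CC of at least 50% fell from 8 to 1, since 1 member had enough calls, and those with body HC/CH above the median gene, or above HM/MH, from 4 to 0, since no member kept 500 body calls. A minimum of 100 body calls, chosen after seeing the data, gave 7 members with more HC/CH than HM/MH. Low-methylated windows numbered 128 of 383 (33.4%) in the main run. They were 77 of 200 (38.5%) with at least 10 calls per site, 49 of 125 (39.2%) with shared sites only and 69 of 221 (31.2%) as 2 kb windows. Chosen in replicate 2, they were 51 of 142 (35.9%), of which 49 were also low in replicate 1. The number with unequal HC/CH orientation was 0 under each alternative run. No gene of the background was called in these runs either, so the 0 is not particular to the members. With at least 10 calls per site only 1 member could be tested. Of 408 promoter and body levels recomputed under 4 alternatives, 326 moved by at most 1 SD of the replicates. With at least 10 calls per site only 54 levels could be compared, and 28 of them moved further. The body CC level of Tbx3, as the mean of the replicates, went from 69.7% to 34.4% in that run. With only sites covered in both replicates it was 58.7%. In bodies, depth limits Klf2, Klf4 and Nr0b1 most. In promoters it limits Nr0b1, Esrrb, Nr5a2 and Klf4 most, with 15, 40, 41 and 52 calls in replicate 2.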
